A study of Mus musculus with 28 samples.

Results

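The genes described here are 10 textbook targets of the hypoxia-inducible factors: Vegfa, Adm, Egln1, Egln3, P4ha1, P4ha2, Bnip3, Higd1a, Mxi1 and Ndrg1. They were taken by name, with earlier results of these data known. All 10 were listed among the 13846 genes measured in embryonic mouse cortex (stage E14.5) and among the 14104 genes measured in adult prefrontal cortex (PFC), and all 10 passed the filter on low values in both tissues. Bulk RNA sequencing libraries came from a MYT1L KO mouse line, in which the gene for this neuronal zinc-finger factor is disrupted, and the series asks what its loss does to transcription. The E14.5 groups were homozygous mutants (Hom, both alleles knocked out, 4 libraries), heterozygous mutants (Het, 1 allele knocked out, 6 libraries) and wild type (WT, 6 libraries). The PFC groups were Het and WT adults with 6 libraries each. The labels give no age in the adults, no treatment and no background strain. Each library carries its own animal identifier, and libraries are named here by labelled sex and number, such as F01 or M02. The identifiers share a few prefixes across genotypes, except for a lone WT library in the PFC. What a prefix stands for is not given in the sources used here, and the main test did not use it.

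Hypoxia-inducible factors are transcription factors whose alpha subunits (Hif1a, Epas1) are hydroxylated on prolines when oxygen is present, then bound by the von Hippel-Lindau protein and degraded. When oxygen is short they persist, pair with Arnt and bind short promoter and enhancer motifs, raising genes for blood vessel growth, glucose uptake and glycolysis, collagen hydroxylation and mitochondrial turnover. In embryonic brain the same system takes part in vessel ingrowth and in the metabolism of dividing progenitors.

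Myt1l was lowest in Hom embryos, and Het and WT embryos overlapped. Its level averaged 20.2 ± 2.35 CPM, the authors' scaled counts relative to a common library total, in Hom (SD, n = 4), 42.8 ± 11.1 in Het and 55.5 ± 8.16 in WT embryos (SD, n = 6 each), with all 4 Hom libraries below every WT library. Het libraries ran from 30.6 to 59.5 CPM and WT libraries from 45.9 to 66.6 CPM, so 3 of 6 Het libraries lay within the WT range, and Het F02 at 59.5 CPM lay above the WT mean. In the PFC it averaged 114 ± 6.70 CPM in Het and 158 ± 8.48 CPM in WT (SD, n = 6 each), with no overlap. Sex labels were matched by Y-linked transcripts except in the E14.5 Het libraries F10 and M11, where 4 Y-linked genes summed to 58.7 CPM and 0 CPM, against their labels. The recovered totals, 27827467 to 30811856 per E14.5 library and 19601294 to 21275162 per PFC library, reflect the authors' scaling, and the sequencing depths are unknown. Summed markers of postmitotic cortical neurons ran from 5641 to 6558 CPM in Hom, 5736 to 6956 CPM in Het and 6333 to 7314 CPM in WT embryos, and from 9168 to 10791 CPM in Het and 9555 to 10131 CPM in WT adults. Of the 10 neuron markers, 1 was higher and 1 lower in Hom embryos, and 3 were higher and 2 lower in Het embryos. By the test given below, 7.6% of all genes were called in Hom and 5.83% in Het. Summed radial glia markers ran from 1674 to 2015 CPM in Hom, 1634 to 2149 CPM in Het and 1478 to 1875 CPM in WT embryos, with 1 of 8 markers higher and 1 lower in Hom and 0 called in Het. Summed choroid plexus markers, a tissue that borders the cortex, ran from 1597 to 2894 CPM in Hom, 3008 to 5222 CPM in Het and 1408 to 3999 CPM in WT embryos, and the part of these 3 marker groups in the results on the 10 genes was not tested.

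Promoter sequence was available for 9 of the 10 genes in RefSeq windows (GRCm38.p6) running from 250 bases before to 50 bases after a gene's start. They were searched for ACGTG and GCGTG, the core letters bound by hypoxia-inducible factors, on both strands, so that CACGT and CACGC count too and a palindromic CACGTG counts as 2 matches. Of all 32851 such windows, 43.8% held at least 1 match and 3.86% held 4 or more. Bnip3 had 5 matches and P4ha2 had 4, P4ha1 and Higd1a had 3 each, Adm and Egln1 had 2 each, and Egln3 had 1. Vegfa had 0 and 2 in its 2 windows, and Mxi1 had 0, 1 and 1 in its 3 windows. A match describes letters and is no evidence of binding.

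Stretches before the annotated start are shown for the genes with the most matches and for the gene that was higher in both mutant genotypes, read 5′ to 3′ on the gene's strand with the motif letters in capitals. Bnip3 lies at chr7:138909522-138909638 on the minus strand, just upstream of the GENCODE gene. P4ha2 lies at chr11:54100802-54100874 and Mxi1 at chr19:53329332-53329366, both on the plus strand and both inside an intron of the GENCODE vM21 gene, ahead of a RefSeq start.
Bnip3: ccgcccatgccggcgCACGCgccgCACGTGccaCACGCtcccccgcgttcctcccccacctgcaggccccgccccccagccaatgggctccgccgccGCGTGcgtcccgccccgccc
P4ha2: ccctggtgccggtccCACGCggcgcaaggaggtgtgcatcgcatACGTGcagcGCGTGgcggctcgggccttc
Mxi1: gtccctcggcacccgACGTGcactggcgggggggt

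The Bnip3 stretch carries its motifs in a cluster at one end and a single one at the other. In P4ha2 the ACGTG and GCGTG motifs stand a few bases apart, while the Mxi1 stretch holds a lone ACGTG.

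At E14.5, Mxi1 was higher in both mutant genotypes and P4ha2 was lower in Hom embryos. No other gene of the 10 passed the test in any comparison. Tests used limma on log2(CPM + 0.5) with genotype and labelled sex as terms, over all tested genes of a tissue, and a gene is called when its Benjamini-Hochberg adjusted p was under 0.05. Fold changes on this scale understate the change of genes with low CPM. In Hom against WT, 2 of 10 were called, against a background of 7.6% of 12429 genes tested (3.23% higher, 4.37% lower). In Het against WT, 1 of 10 was called, against 5.83% of the genes (2.84% higher). Both comparisons use the same 6 WT libraries.

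**Figure D1:**
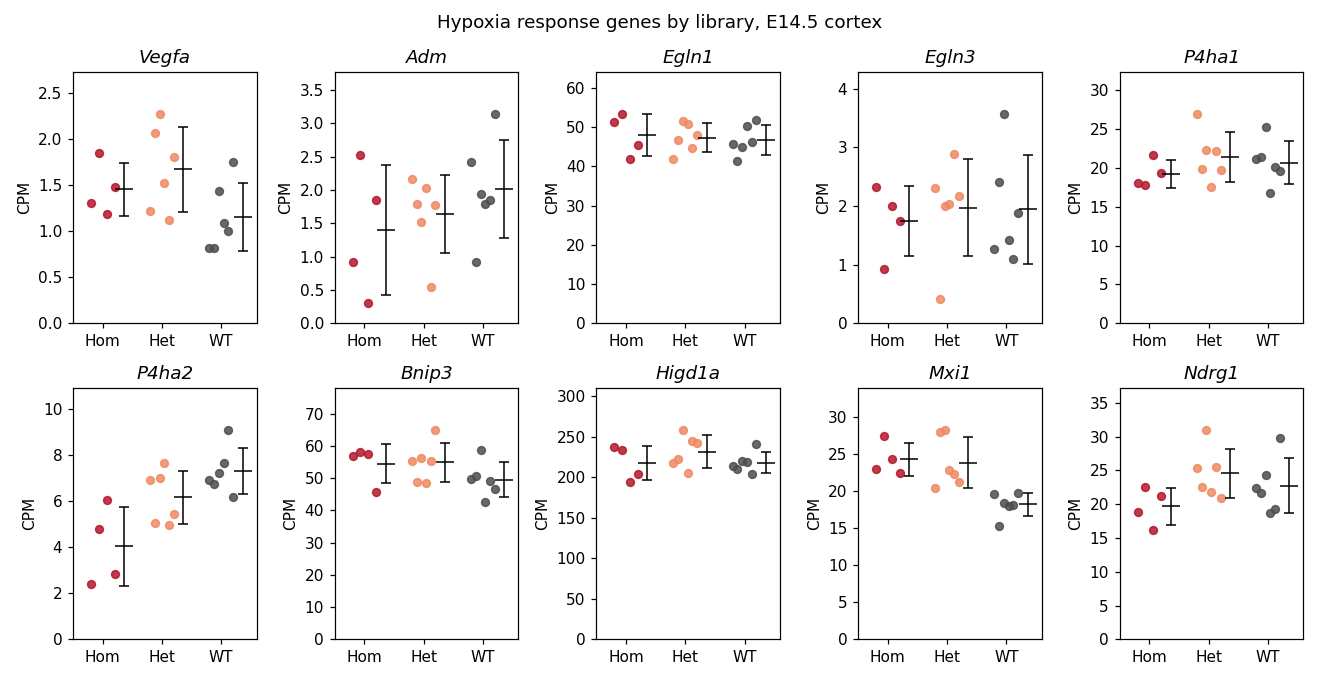
CPM of each of the 10 genes in every E14.5 cortex library, with Hom, Het and WT from left to right in each panel. Points are libraries and the bar beside them is the mean with its SD. The Hom and Het points of Mxi1 all lie above the highest WT point of 19.8 CPM, and the 4 Hom points of P4ha2 all lie below the lowest WT point of 6.19 CPM.

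Mxi1 encodes a repressor of the MYC and MAX network, which pairs with MAX and opposes transcription driven by MYC. The gene (ENSMUSG00000025025) lies on the plus strand of chromosome 19, at 53310518 to 53375810 in GRCm38. Its level was 22.4, 23.0, 24.3 and 27.4 CPM in the 4 Hom libraries. In Het libraries the lowest, median and highest values were 20.4, 22.6 and 28.3 CPM, and in WT libraries they were 15.3, 18.3 and 19.8 CPM. All 10 mutant libraries thus exceeded all 6 WT libraries, while Hom and Het values were interleaved. The log2 fold change was 0.41 ± 0.11 (SE) in Hom against WT, with a limma adjusted p of 0.0281. For Het against WT it was 0.40 ± 0.11 (SE), with a limma adjusted p of 0.0290. Hom against Het gave 0.01 ± 0.12 (SE) and was not called (limma adjusted p of 0.995). Both calls were near the threshold. The Hom call was lost on leaving out WT M03, WT F04, Hom F04, Hom F09 or Hom M02, with log2 changes of 0.36 to 0.43 and limma adjusted p-values of 0.0533 to 0.106. The Het call was lost on leaving out WT M03, WT F04, WT F06, Het F02 or Het F07, with log2 changes of 0.32 to 0.45 and limma adjusted p-values of 0.0507 to 0.120. An exon of Gm10197, a gene on the opposite strand, overlaps Mxi1, and since the use of strand in counting is not given in the sources used here, reads of the pair cannot be told apart.

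P4ha2 encodes a catalytic alpha subunit of collagen prolyl 4-hydroxylase, an enzyme that uses oxygen to stabilise the collagen triple helix. The gene (ENSMUSG00000018906) lies on the plus strand of chromosome 11, at 54100095 to 54131665. The 4 Hom libraries stood at 2.43 CPM in F01, 2.86 CPM in M02, 4.81 CPM in F04 and 6.08 CPM in F09. Het libraries had a lowest, median and highest value of 4.98, 6.19 and 7.66 CPM, and WT libraries of 6.19, 7.08 and 9.11 CPM. No Hom library reached the WT range, and 3 of 6 Het libraries also lay below it. In Hom against WT the log2 fold change was −0.83 ± 0.20 (SE), with a limma adjusted p of 0.0129. In Het against WT it was −0.16 ± 0.19 (SE) and was not called (limma adjusted p of 0.658). Hom against Het gave −0.67 ± 0.20 (SE), and this direct difference was not called either, with a limma adjusted p of 0.775.

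The Hom libraries were not alike in P4ha2, and F01 and M02 held the lowest values. Without F01 the Hom against WT change was −0.62 with a limma adjusted p of 0.0715. The same 2 libraries had the highest summed level of 5 ventral telencephalon markers, at 103 CPM in F01 and 80.5 CPM in M02, against 36.3 CPM in F04 and 29.6 CPM in F09. That sum ran from 33.9 to 71.2 CPM in Het and from 23.3 to 43.5 CPM in WT libraries, and 1 of the 5 tested markers was called higher in Hom. The other 3 markers of that list, Dlx6, Gsx2 and Nkx2-1, are not in the table analysed here. Het libraries went the other way at the top, since M07 had both their highest ventral sum (71.2 CPM) and their highest P4ha2 (7.66 CPM). Hom F01 also had the lowest endothelial (60.7 CPM) and choroid plexus (1597 CPM) sums of the Hom libraries. The same held for its pericyte and smooth muscle (144 CPM) and erythroid (7396 CPM) sums. Meningeal and fibroblast markers, a cell type rich in collagen, summed to 302 to 348 CPM in Hom, 270 to 410 CPM in Het and 180 to 376 CPM in WT, with 0 of 9 called in Hom and 2 of 9 called higher in Het. The share of all genes called higher was 3.23% in Hom and 2.84% in Het. The part of any of these cell types in the P4ha2 result was not tested. In bulk tissue, fewer cells of a type and less RNA per cell cannot be told apart.

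P4ha1, the paralogous alpha subunit, had 17.8, 18.0, 19.3 and 21.7 CPM in Hom, a median of 21.0 CPM in Het (17.6 to 27.0) and of 20.6 CPM in WT (16.7 to 25.2). The 3 groups overlapped throughout, and its log2 change in Hom against WT was −0.09 ± 0.12 (SE). Of 10 other tested genes of the collagen prolyl and lysyl hydroxylase system, besides P4ha1 and P4ha2, 0 were called in Hom against WT. The median log2 change there was 0.02, as it was over all genes tested. In Het against WT 0 were called as well. Over all genes, 7.6% were called in Hom and 5.83% in Het, so these counts are near the background.

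The secreted ligands were low and variable. Vegfa, the growth factor that draws vessels into the brain, stood at 1.18, 1.30, 1.48 and 1.84 CPM in Hom. Its lowest, median and highest levels were 1.12, 1.67 and 2.27 CPM in Het and 0.816, 1.04 and 1.74 CPM in WT. All 4 Hom and 5 of 6 Het libraries exceeded the WT mean, but the ranges overlapped. The log2 change was 0.27 ± 0.24 (SE) in Hom and 0.45 ± 0.23 (SE) in Het against WT, and neither was called (limma adjusted p of 0.535 and 0.250). Adm encodes adrenomedullin, a peptide that widens vessels. It stood at 0.304, 0.922, 1.85 and 2.52 CPM in Hom, with ranges of 0.542 to 2.17 CPM in Het and 0.918 to 3.15 CPM in WT. One Hom library lay below the WT range and the other 3 within it, and the log2 change of −0.49 ± 0.33 (SE) was not called (limma adjusted p of 0.392).

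The receptors and other ligands of these 2 systems did not pass the test. Of 13 tested genes for other VEGF ligands, their receptors and adrenomedullin receptors, 0 were called in Hom against WT (median log2 change 0.13, against 0.02 over all genes tested) and 0 in Het against WT (0.01, against 0.03). Over all genes, 7.6% were called in Hom and 5.83% in Het, so 0 of 13 is near the background. Summed endothelial markers had a median of 93.3 CPM in Hom (60.7 to 123), 113 CPM in Het (77.3 to 150) and 134 CPM in WT (66.5 to 153), with 0 of 12 markers called in either comparison.

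Neither oxygen sensor was called. Egln1 encodes the main prolyl hydroxylase that marks HIF alpha subunits, and Egln3 a relative that is itself a strong HIF target. Egln1 had 41.9, 45.5, 51.4 and 53.5 CPM in Hom, 41.9 to 51.7 CPM in Het and 41.3 to 51.9 CPM in WT, so the groups lay on top of each other. The log2 change was 0.04 ± 0.09 (SE) in both comparisons with WT. Egln3 had 0.921, 1.75, 1.99 and 2.32 CPM in Hom, 0.405 to 2.88 CPM in Het and 1.10 to 3.57 CPM in WT. At this low level its log2 changes carried standard errors of 0.33 in Hom (−0.08) and 0.31 in Het (0.02), among the widest of the 10 genes.

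The mitochondrial genes were the most abundant of the 10. Bnip3, a receptor that directs mitochondria to autophagy, had 45.6, 56.9, 57.4 and 58.1 CPM in Hom. Het libraries ran from 48.6 to 64.9 CPM (median 55.3) and WT libraries from 42.7 to 58.6 CPM (median 49.5). Its log2 change of 0.15 ± 0.09 (SE) in Hom and 0.20 ± 0.09 (SE) in Het was not called (limma adjusted p of 0.350 and 0.169). Higd1a, a small protein of the inner mitochondrial membrane linked to respiratory supercomplexes, had 194, 205, 233 and 237 CPM in Hom, 205 to 259 CPM in Het and 204 to 241 CPM in WT. Its groups overlapped, with 3 of 6 Het libraries above the whole WT range and a log2 change of 0.11 ± 0.07 (SE) in Het that was not called. Exons of antisense genes overlap Bnip3 (Gm45507), Higd1a (Gm47112) and Ndrg1 (Gm17035).

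Ndrg1 encodes a stress-induced protein of vesicle traffic and differentiation. It had 16.2, 18.9, 21.2 and 22.5 CPM in Hom, 21.0 to 31.0 CPM in Het and 18.8 to 29.8 CPM in WT, and every Hom library lay under the WT mean of 22.7 CPM. The log2 change was −0.19 ± 0.13 (SE) in Hom against WT (limma adjusted p of 0.408) and 0.13 ± 0.13 (SE) in Het against WT (0.602). Its paralogs Ndrg2 and Ndrg3 passed the test. Ndrg2 averaged 318 ± 15.3 CPM in Hom (SD, n = 4), 323 ± 15.9 CPM in Het and 381 ± 33.6 CPM in WT (SD, n = 6 each). Ndrg3 averaged 194 ± 5.71 CPM in Hom, 201 ± 21.5 CPM in Het and 240 ± 12.2 CPM in WT. Both were lower in Hom (limma adjusted p of 0.0205 and 0.0161) and in Het (0.0211 and 0.0395), and they were the only called genes among 10 tested paralogs of the members. The share of all genes called lower was 4.37% in Hom, and in Het 371 of 12429 genes were lower.

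**Figure D2:**
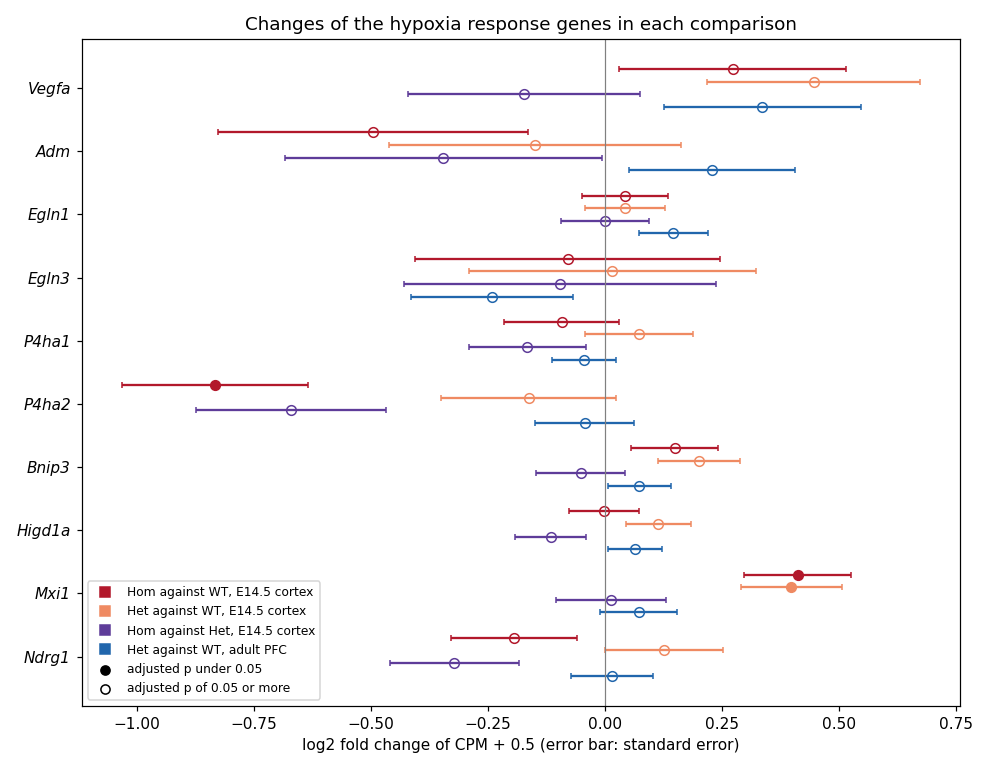
Log2 fold change of CPM + 0.5 with its standard error for each of the 10 genes in 4 comparisons. Filled points have a limma adjusted p under 0.05. The 3 filled points are P4ha2 in Hom against WT (−0.83) and Mxi1 in Hom (0.41) and Het (0.40) against WT.

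Hom against Het, tested directly, gave 0 called among the 10, against 0.00805% of genes, which is 1 gene of 12429. At an unadjusted p under 0.05, 636 of 12429 genes passed in limma, close to the share that this threshold alone lets through. P4ha2 and Ndrg1 were among them, which is no evidence of a difference between Hom and Het. Ndrg1 had a log2 change of −0.32 ± 0.14 (SE) and a limma adjusted p of 0.957. The other 8 genes had log2 changes between −0.35 (Adm) and 0.01 (Mxi1).

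Other genes of the hypoxia system were described by list at E14.5. The lists were written with earlier results of these data known, so the shares over all genes beside them are no independent contrast. Of 18 tested glycolytic and glucose-uptake targets, 8 were lower and 0 higher in Hom against WT, where 4.37% of all genes were lower, with a median log2 change of −0.29 against 0.02 over all genes. In Het against WT 7 were lower and 0 higher, where 371 of 12429 genes were lower, with a median of −0.20 against 0.03. Eno1, the glycolytic enolase, averaged 1929 ± 52.9 CPM in Hom (SD, n = 4), 2065 ± 225 CPM in Het and 2734 ± 192 CPM in WT (SD, n = 6 each), a log2 change of −0.50 in Hom (limma adjusted p of 0.000615). Ldha, which turns pyruvate into lactate, averaged 1132 ± 55.4 CPM in Hom, 1230 ± 110 CPM in Het and 1509 ± 80.9 CPM in WT, a log2 change of −0.41 in Hom (limma adjusted p of 0.00114). The aldolase gene Aldoc fell by 0.42 on the log2 scale in Hom and by 0.39 in Het, and the phosphofructokinase gene Pfkp fell by 0.80 in Hom. Gpi1, glucose-6-phosphate isomerase, fell by 0.32 in Het. In the same comparisons 2 of 10 neuron markers were called in Hom and 5 of 10 in Het, against 7.6% and 5.83% of all genes. These went both ways, with 1 higher and 1 lower in Hom and 3 higher and 2 lower in Het. The median log2 change of the 10 markers was 0.27 in Hom and 0.24 in Het. The part of neurons in the glycolytic result was not tested. The Het count was 2 without the Het library F07 and 4 without the WT library F04.

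Among 15 genes of the HIF system, 1 was higher in Hom and 2 in Het, and 0 were lower. Over all genes tested, 3.23% were higher in Hom and 2.84% in Het, so the Hom count is near the background, and the Het count rests on 2 genes. Hif1a, the oxygen-regulated subunit, averaged 31.0 ± 4.60 CPM in Hom (SD, n = 4), 33.7 ± 4.99 CPM in Het and 24.8 ± 2.41 CPM in WT (SD, n = 6 each), and was called in Het (log2 change 0.49 ± 0.10 (SE), limma adjusted p of 0.00821). Siah1a, a ubiquitin ligase that acts on prolyl hydroxylases, averaged 20.5 ± 4.57 CPM in Hom, 19.0 ± 4.16 CPM in Het and 12.7 ± 1.73 CPM in WT, and was called in both (limma adjusted p of 0.0109 and 0.0200). RNA levels say nothing of the HIF proteins, which are regulated by degradation.

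Of 39 tested genes in a list of other reported HIF targets, 5 were higher and 1 lower in Hom, and 2 were higher and 2 lower in Het. Over all genes 3.23% were higher and 4.37% lower in Hom and 5.83% were called either way in Het, so the 1 lower gene in Hom is no more than the background and the 4 called in Het differ from it by a few genes. Lox, which cross-links collagen, had the widest change, with 4.83 ± 2.81 CPM in Hom (SD, n = 4), 3.45 ± 1.57 CPM in Het and 1.59 ± 0.912 CPM in WT (SD, n = 6 each), a log2 change of 1.42 ± 0.34 (SE) in Hom and 1.15 ± 0.32 (SE) in Het. Pnrc1, a nuclear receptor coactivator, rose by 0.55 in Hom and 0.41 in Het on the log2 scale, and in Hom the cyclin gene Ccng2 rose by 0.44 and the AP-1 subunit Fosl2 by 0.68. In Het the clock-linked repressor Bhlhe40 fell by 0.54 and the glycogen synthase gene Gys1 by 0.43. The MAX network, to which Mxi1 belongs, had 0 of 11 called in Hom (median log2 change −0.01) and 0 of 11 in Het (median −0.00).

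**Figure D3:**
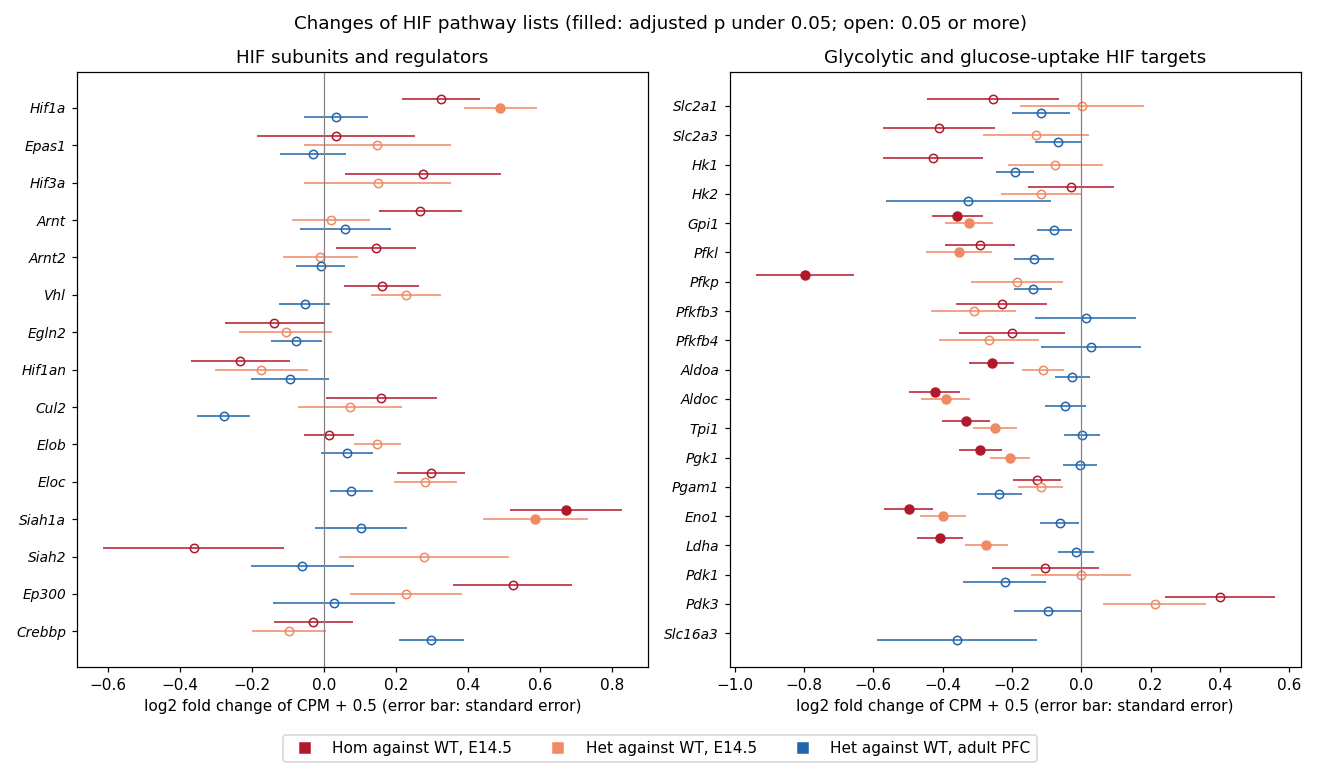
Log2 fold change of CPM + 0.5 with its standard error for genes of the HIF system (left) and for glycolytic and glucose-uptake targets (right), in Hom and Het against WT at E14.5 and in Het against WT in adult PFC. Filled points have a limma adjusted p under 0.05. On the right 8 Hom points and 7 Het points are filled and all lie below 0, and no PFC point is filled in either panel.

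In adult PFC none of the 10 genes was called in Het against WT, against 0.404% of 12870 genes, which is 52 genes. At an unadjusted p under 0.05, 1749 genes passed in limma, and none of the 10 was among them. Mxi1, higher in the embryo, ran from 30.3 to 42.8 CPM in Het (median 38.3) and from 29.8 to 39.5 CPM in WT (median 35.4), a log2 change of 0.07 ± 0.08 (SE). P4ha2 ran from 10.5 to 15.8 CPM in Het (median 12.4) and from 10.4 to 16.7 CPM in WT (median 13.0), a log2 change of −0.04 ± 0.11 (SE). Every Het library of P4ha2 lay within the WT range. For Mxi1 the ranges overlapped, with 3 of 6 Het libraries above the whole WT range. Each table was normalized separately, so changes in the 2 tissues were not tested against each other.

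Vegfa had the widest positive change in the PFC. Its lowest, median and highest levels were 1.80, 2.38 and 4.49 CPM in Het and 1.02, 2.03 and 3.96 CPM in WT, with 5 of 6 Het libraries above the WT mean. The log2 change was 0.34 ± 0.21 (SE), with a limma adjusted p of 0.489. Adm ran from 4.53 to 9.54 CPM in Het and from 3.82 to 7.06 CPM in WT (0.23 ± 0.18 (SE)), and Egln3 from 2.25 to 4.52 CPM in Het and from 3.07 to 5.55 CPM in WT (−0.24 ± 0.17 (SE)). Neither was called.

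Egln1 was the gene of the 10 with the lowest p in the PFC. It ran from 34.6 to 46.0 CPM in Het (median 37.6) and from 32.5 to 36.8 CPM in WT (median 35.3), a log2 change of 0.15 ± 0.07 (SE) with a limma adjusted p of 0.386. The 3 Het libraries above the whole WT range were the 3 labelled female, at 46.0, 39.7 and 41.8 CPM, while the Het males stood at 34.7, 34.6 and 35.4 CPM. WT females stood at 35.2, 33.0 and 36.8 CPM and WT males at 32.5, 35.4 and 35.6 CPM. The Het females share an identifier prefix with Het M09, at 35.4 CPM, while the other Het males carry a different prefix. The interaction of genotype and sex was −0.26 ± 0.14 (SE) on the log2 scale, males minus females, and was not called (limma adjusted p of 0.634). Of the 10 genes 0 were called for this interaction, against 0.0% of genes, and 1092 genes passed at an unadjusted p under 0.05, none of them among the 10.

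**Figure D4:**
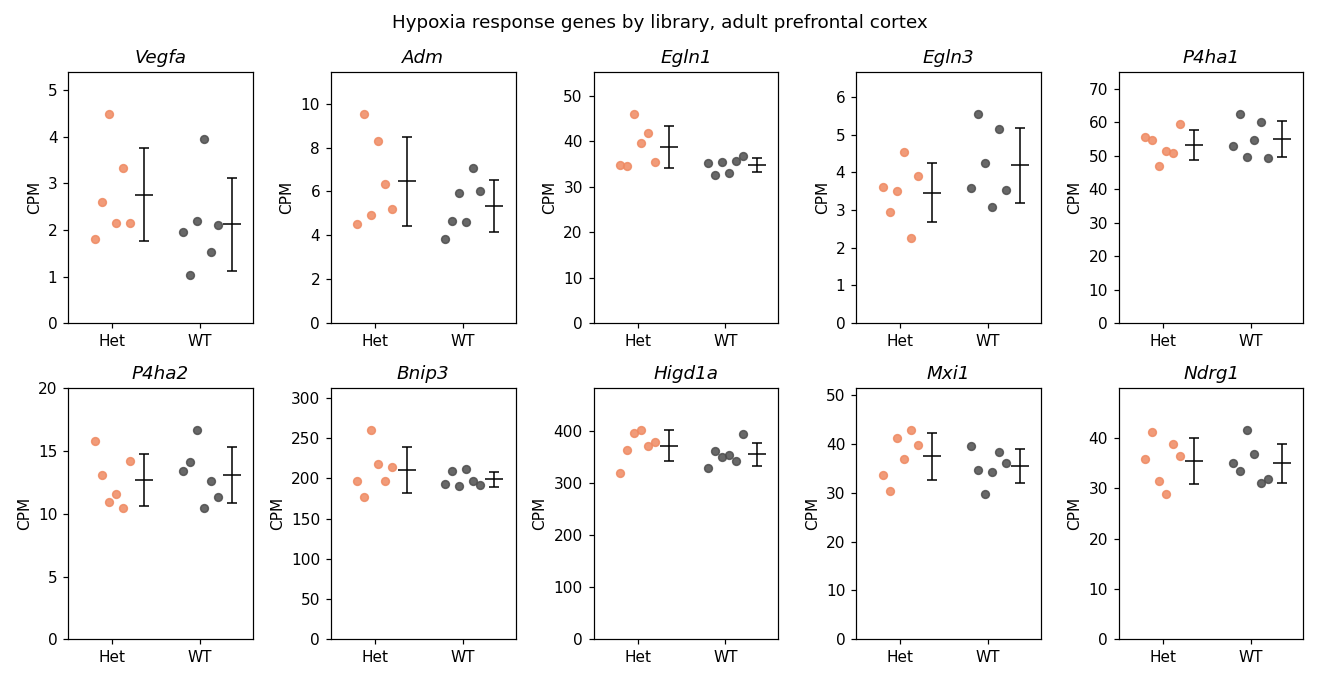
CPM of each of the 10 genes in every adult PFC library, with Het left of WT in each panel. Points are libraries and the bar beside them is the mean with its SD. The Het and WT points overlap for every gene. In Egln1 3 Het points lie above the highest WT point of 36.8 CPM, and 3 Het points do so in Bnip3 and 3 in Mxi1 as well.

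The remaining 4 genes overlapped between genotypes in the adult and were not called. Higd1a ran from 318 to 401 CPM in Het and from 329 to 394 CPM in WT, and Bnip3 from 177 to 260 CPM in Het and from 191 to 211 CPM in WT, so that Bnip3 spread more widely in Het on both sides. P4ha1 ran from 46.8 to 59.7 CPM in Het and from 49.4 to 62.6 CPM in WT, and Ndrg1 from 28.8 to 41.2 CPM in Het and from 31.0 to 41.5 CPM in WT. Their log2 changes lay between −0.05 (P4ha1) and 0.07 (Bnip3). Of 19 tested glycolytic targets 0 were called in the PFC, against 0.404% of all genes, with a median log2 change of −0.08 against 0.01 over all genes. Fosl2 was the only called gene of the pathway lists there, at 20.6 ± 3.91 CPM in Het and 13.4 ± 2.14 CPM in WT (SD, n = 6 each), a log2 change of 0.59 with a limma adjusted p of 0.0283.

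Levels between genes were compared per kilobase of each gene's longest transcript, in WT libraries. At E14.5 Higd1a led with 97.8 ± 5.61 CPM per kilobase (SD, n = 6), followed by Bnip3 at 28.2 ± 3.01 and Egln1 at 13.0 ± 1.07. Ndrg1 (5.62 ± 0.997) and P4ha1 (5.12 ± 0.687) came next with overlapping ranges, then Mxi1 at 3.62 ± 0.318 and P4ha2 at 2.39 ± 0.330. Adm (1.45 ± 0.531), Egln3 (0.729 ± 0.350) and Vegfa (0.333 ± 0.107) were lowest, and from P4ha2 down each range overlapped the next. In PFC the order was Higd1a at 159 ± 9.85 CPM per kilobase, Bnip3 at 113 ± 5.25, P4ha1 at 13.6 ± 1.34, Egln1 at 9.67 ± 0.453, Ndrg1 at 8.63 ± 0.956 and Mxi1 at 7.04 ± 0.682. P4ha2 (4.28 ± 0.724), Adm (3.85 ± 0.857), Egln3 (1.57 ± 0.371) and Vegfa (0.616 ± 0.289) again came last. The ranges of Egln1 and Ndrg1, of Ndrg1 and Mxi1, and of P4ha2 and Adm overlapped in the adult.

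The 10 genes did not vary as a block across libraries. Over 45 pairs per tissue, the median Pearson's r of log2(CPM + 0.5) was 0.161 at E14.5 (28 pairs positive) and −0.0612 in PFC (20 positive). At E14.5 6 pairs had a raw permutation p under 0.05 by Pearson's r, and in PFC 7. After Benjamini-Hochberg adjustment over the pairs, 1 pair at E14.5 passed by r, 0 passed by Spearman's rho, and 0 passed in PFC by either. That pair was Vegfa and Mxi1 over 16 libraries, with r = 0.742 (permutation p = 0.00108, adjusted 0.0486) and rho = 0.735 (permutation p = 0.00171, adjusted 0.0769). Without the 2 libraries farthest from the Vegfa median, r was 0.584. Mxi1 separates the mutants from WT, so the pooled value mixes genotypes. Within the 6 Het libraries r was 0.780 (exact permutation p = 0.0861) and rho 0.714 (exact permutation p = 0.136), and within the 6 WT libraries r was 0.507 (exact permutation p = 0.322) and rho 0.600 (exact permutation p = 0.242).

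The genes whose pattern was most like the mean of the 10 standardized genes differed between the tissues. At E14.5 they were 2700097O09Rik (r = 0.891, rho = 0.891 over 16 libraries), Gpr22 (r = 0.815), Selenos (r = 0.812), Mllt6 (r = 0.811) and Noct (r = 0.810). In PFC they were Ptges3 (r = 0.963, rho = 0.972 over 12 libraries), Hpf1 (r = 0.942), Ndufaf4 (r = 0.942), Ajap1 (r = 0.922) and Rab28 (r = 0.920). These are the highest of 12429 and 12870 genes searched and are given as a description. Without the 2 libraries farthest from the median of that mean, r stayed at 0.733 or more at E14.5 and at 0.884 or more in PFC.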

How the data were processed

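Per the labels' protocols, a Zymo kit gave the RNA and a SMARTer Ultra Low kit the libraries. Trimmomatic, Bowtie2, STAR and HTSeq with build mm10 are named in the submitters' processing notes, without versions or roles. The authors deposited 1 table per tissue of log2 CPM with a prior count of 2, after RUVr, a step that removes unwanted variation, as read from the table names and values. Upper-quartile scaling before it was inferred and was not checked. All values (100%) inverted to whole numbers within 0.01. These are scaled and adjusted, not raw counts, so the sequencing depth is unknown and no count model was used. CPM was the whole number times its library's step (0.0335 to 0.0344 CPM at E14.5, 0.0486 to 0.0495 in PFC).

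The test covered 12429 (E14.5) and 12870 (PFC) genes that reached 1 CPM in 4 or 6 libraries of the tissue. log2(CPM + 0.5) was fitted with limma 3.58.1 in R 4.3.3 (eBayes with trend and robust), with genotype and labelled sex as terms and all libraries of a tissue in 1 fit. The method was tested on simulated independent libraries without an RUVr step, which cannot show how calls behave on values adjusted by RUVr. Correlations used 100000 permutations, in numpy 2.4.6. Positions and lengths came from GENCODE vM21, whose assembly GRCm38 is the one mm10 names. Aldoa has 2 gene identifiers there, and the more abundant was used.

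The members and lists were chosen with earlier results of these data known. All 10 members are named. From each list up to 4 called genes with the lowest adjusted p per comparison are named, and the 5 genes most like the members' mean in each tissue. Alternatives changed the pseudocount (0.1 or 2), the filter (none or 5 CPM), the scaling, the terms of the fit, the libraries, and corrected for GC content and length. They also added as terms the 2 directions (E14.5) or 1 direction (PFC) among libraries that RUVr left nearly without variance.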

Additional observations from a re-analysis of the deposited data

Results flagged for a closer look

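Among 50 groups of 4 or 6 libraries checked for a single library far from the others of its group, 4 held one, and chance flags about 1 in 20 groups. In E14.5 cortex Bnip3 stood at 45.6 CPM in Hom M02, against 56.9 to 58.1 CPM in the other Hom libraries. Egln3 stood at 0.405 CPM in Het M11, with the next Het library at 2.00 CPM, and M11 is 1 of the 2 libraries whose Y-linked transcripts went against the label. Adm stood at 0.542 CPM in Het M01, with the next Het library at 1.53 CPM. Mxi1 stood at 15.3 CPM in WT M03, with the next WT library at 18.1 CPM, and this is a library without which both Mxi1 calls were lost. No such library was found in adult PFC.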

How the results depend on the processing

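The count of called members in Het against WT at E14.5 was 1 and became 0 without trend and robust settings, with the RUVr directions as terms, with only the 2 groups compared in the fit and with labelled females only. The labelled females include Het F10, whose Y-linked transcripts went against its label. The main fits kept the labels of F10 and M11 in the sex term, and no fit with these labels exchanged was run. Leaving out single libraries gave 0 to 1. In Hom against WT the count was 2 and became 1 with the RUVr directions and with labelled females only, both times through Mxi1, and leaving out libraries gave 1 to 2. Over all genes, the calls ran from 131 to 1177 in Het against WT (724 as reported), from 468 to 1379 in Hom against WT (944), from 0 to 1 in Hom against Het (1) and from 0 to 127 in PFC (52). The count for the glycolytic list was recomputed under each alternative after the data had been seen. In Het it was 7 and became 2 without trend and robust settings, 4 with the RUVr directions and 4 with only the 2 groups compared, and leaving out libraries gave 2 to 8, while in Hom it stayed between 7 and 11. Of 711 recomputed values of named list genes, 87 lost their call and 0 changed direction. In Het against WT the Gys1 and Ndrg3 calls were each lost in 13 of 30 alternatives and the Lox call in 13 of 29, and the PFC call of Fosl2 in 8 of 23. The causes were not tested.

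Of 1337 recomputed values of the members, 17 lost a call, 0 gained one and 62 changed sign, each of these at an adjusted p of 0.697 or more. All Mxi1 changes against WT at E14.5 stayed between 0.29 and 0.47, and P4ha2 in Hom against WT between −1.03 and −0.62. Sign changes at E14.5 came in Het against WT for Egln1 with labelled females only (−0.022), for Egln3 with a pseudocount of 0.1 (−0.0023), median centring (−0.014), trimmed-mean scaling (−0.011) and no sex term (−0.012), and for P4ha1 without F10 and M11 (−0.011). In Hom against Het they came for Egln1 with median centring (−0.0019), the RUVr directions (−0.0023) and without F10 and M11 (−0.057), and for Mxi1 without F10 and M11 (−0.0044). Higd1a in Hom against WT changed sign with the identifier prefix as a term (0.0027), with the GC and length correction (0.040), with labelled females only (0.0087) and without F10 and M11 (0.00038). In PFC, P4ha2 changed sign with the identifier prefix as a term, in Het against WT (0.0039) and in the interaction (−0.021), where that term removes the lone library of its prefix.

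Leaving out libraries in turn moved log2 changes across 0 within these ranges. In Het against WT they were −0.0038 to 0.10 for Egln1, −0.082 to 0.21 for Egln3 and −0.015 to 0.12 for P4ha1. In Hom against Het they were −0.71 to 0.012 for Adm, −0.072 to 0.015 for Bnip3, −0.056 to 0.066 for Egln1, −0.31 to 0.11 for Egln3 and −0.055 to 0.072 for Mxi1. In Hom against WT they were −0.0063 to 0.12 for Egln1, −0.20 to 0.14 for Egln3 and −0.040 to 0.061 for Higd1a. In PFC they were −0.033 to 0.066 for Ndrg1 and −0.088 to 0.0039 for P4ha2. In the interaction they were −0.041 to 0.12 for P4ha1, −0.021 to 0.18 for P4ha2 and −0.15 to 0.34 for Vegfa. No paired analysis was run, because the numbers in the labels tie no single library of one genotype to a single library of another. Identifier prefixes are shared across genotypes, and the prefix was a term only in an alternative fit. The low levels of Vegfa, Adm and Egln3 limit what could be detected. The p-values carry only the spread between these animals that RUVr left. The main fit did not count the directions that RUVr had removed, so its p-values can be too small.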
